A study of Mus musculus with 8 samples.

Results

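Zinc-handling genes were examined in whole mouse pancreas: the metallothioneins *Mt1* and *Mt2*, the zinc-sensing transcription factor *Mtf1*, the zinc exporters *Slc30a1* and *Slc30a2*, and the zinc importers *Slc39a5* and *Slc39a14*. These 7 genes were taken by symbol from the 48709 genes listed in each library, and all 7 were above 0 in all 8 libraries. RNA-Seq was performed on pancreata of male mice 8 weeks old, killed 24 hours after induction, with 2 libraries in each of 4 groups. WT mice received either normal saline or POA, the fatty acid palmitoleic acid, together with ethanol, the model of alcoholic acute pancreatitis named FAEE-SAP. The cKO mice carried Pfkfb3 fl/fl with Pdx1-Cre, which removes floxed exons of *Pfkfb3* in pancreatic epithelial cells and leaves the gene in blood, vessel, and stromal cells, and they received saline or FAEE-SAP in the same way. Mice were fasted before induction, and buprenorphine was given to mice that received POA and ethanol. WT mice were purchased and cKO mice were bred from floxed and Cre lines, so genotype and source cannot be told apart. No source names the mice behind the replicates or states that they were processed on separate days, so p-values measure only the spread between these libraries.

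Zinc is held in the cytoplasm by metallothioneins, small cysteine-rich proteins that bind it and release it again. The transcription factor MTF-1, encoded by *Mtf1*, binds zinc and then metal response elements in DNA, and the metallothionein genes and *Slc30a1*, a zinc exporter of the plasma membrane, are its best known targets. Metallothionein genes also respond to glucocorticoids and to IL-6. Acinar cells of the exocrine pancreas secrete zinc along with digestive enzymes: *Slc30a2* moves zinc into zymogen granules and other vesicles, and *Slc39a5* takes up zinc at the basolateral membrane. *Slc39a14* imports zinc, iron, and manganese and is an acute-phase gene in the liver.

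*Mt1* and *Mt2* are neighbors on chromosome 8 of GRCm38, both on the plus strand, *Mt2* at chr8:94172664-94173568 and *Mt1* at chr8:94179082-94180327, with 5513 bases between them. The 250 bases before the RefSeq start of the metallothionein genes and of *Slc30a1* (GRCm38.p6) are shown because they hold the metal response element core that MTF-1 binds. Capitals mark the core TGCACNC or TGCGCNC on either strand.
Mt2 (chr8:94172368-94172617, plus strand): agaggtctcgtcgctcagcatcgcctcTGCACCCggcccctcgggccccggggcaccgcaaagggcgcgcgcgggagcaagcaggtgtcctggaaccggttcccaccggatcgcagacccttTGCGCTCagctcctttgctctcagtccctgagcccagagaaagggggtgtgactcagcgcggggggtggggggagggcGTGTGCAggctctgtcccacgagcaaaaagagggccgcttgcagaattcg
Mt1 (chr8:94178839-94179088, plus strand): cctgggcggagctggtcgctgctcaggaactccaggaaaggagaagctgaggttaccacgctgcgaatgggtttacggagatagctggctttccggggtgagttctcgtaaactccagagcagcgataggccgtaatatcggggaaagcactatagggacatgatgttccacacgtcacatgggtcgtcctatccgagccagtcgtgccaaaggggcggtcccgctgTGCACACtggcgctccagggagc
Slc30a1 (chr1:191906531-191906780, plus strand): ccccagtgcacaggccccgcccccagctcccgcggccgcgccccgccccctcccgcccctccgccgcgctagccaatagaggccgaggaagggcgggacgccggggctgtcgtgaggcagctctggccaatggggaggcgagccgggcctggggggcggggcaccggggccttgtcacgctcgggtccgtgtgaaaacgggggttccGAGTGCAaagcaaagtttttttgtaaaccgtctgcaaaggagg
The *Mt2* window held 3 cores, the *Mt1* window 1, and the *Slc30a1* window 1. Among all 32851 RefSeq windows of this length, 21.4% held at least 1 core and 1.26% held at least 3. With the 50 bases after the start included, *Mt2* had 4, *Mt1* 3, and *Slc30a1* 2 cores, and 1.97% of all windows had at least 3. Without the bases after the start, the *Slc30a2* window held 2 cores, *Slc39a5*, which has 2 RefSeq starts, held 1 and 0, and *Mtf1* held 0. A match describes letters and is not a bound site.

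The other members lie at chr4:124802104-124849800 (*Mtf1*, plus strand), chr1:191906767-191913247 (*Slc30a1*, plus), chr4:134343181-134354484 (*Slc30a2*, plus), chr10:128395931-128401229 (*Slc39a5*, minus), and chr14:70303469-70351425 (*Slc39a14*, minus) in GENCODE vM21 of GRCm38. Annotated genes on the opposite strand overlap *Mt2*, *Mtf1*, *Slc30a1*, and *Slc39a5*. The library kit marks strand, but whether strand was used for counting is not given in the sources used here. *Mt1* and *Mt2* are close paralogs, and how reads that match both were assigned is not given either.

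The values are RPKM, which relate the reads of a gene to its exonic length and to the mapped reads of the library. Library totals worked out from the lowest values were 22.8 to 37.6 M reads. *Pfkfb3*, the targeted gene, had a scaled RPKM of 1.70 and 1.69 with saline and 1.85 and 3.21 with FAEE-SAP in WT, and 0.880 and 2.10 with saline and 1.74 and 2.82 with FAEE-SAP in cKO, and a level per gene cannot show the loss of a few exons. As deposited, the median gene in the FAEE-SAP libraries was higher by 1.24 log2 units in WT and by 0.57 in cKO than in saline libraries. The libraries were therefore scaled to the median gene, and each change below is relative to it. Acinar markers, 12 genes for digestive enzymes and acinar transcription factors, took 30.2% to 30.9% of all RPKM in saline libraries, 25.7% to 25.8% in WT FAEE-SAP, and 28.8% to 29.1% in cKO FAEE-SAP. In WT, 12 of the 12 acinar markers were lower with FAEE-SAP relative to the median gene, and 10 were called, where 6.93% of all genes tested were called.

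The 7 genes covered a wide range of levels. The metallothioneins ranked between 26 and 103 among all genes in every library, *Slc39a5* between 181 and 474, and *Mtf1* between 8466 and 9817. *Slc30a1*, *Slc30a2*, and *Slc39a14* were between 1.08 and 7.60 scaled RPKM in all libraries. *Mtf1* stayed between 0.462 and 0.726. For testing, a gene had to have a deposited RPKM of at least 0.5, before scaling, in at least 2 libraries of a comparison.

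*Mt1*, which encodes metallothionein 1, had a scaled RPKM of 447 and 228 with saline and 744 and 1040.3 with FAEE-SAP in WT, and 180.1 and 796 with saline and 173 and 929 with FAEE-SAP in cKO (replicates 1 and 2). *Mt2*, for metallothionein 2, had 388 and 276 with saline and 680.2 and 1604 with FAEE-SAP in WT, and 202 and 623 with saline and 146 and 841 with FAEE-SAP in cKO. In WT, both FAEE-SAP libraries were above both saline libraries for each gene. In cKO, 1 library of each treatment was low and 1 was high, and the treatments overlapped. Whether 2 libraries lie apart from 2 is described here and below with no test. An exact permutation test of that size cannot give a two-sided p below 0.33. The share of all genes that lie apart in this way was not counted.

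**Figure D1:**
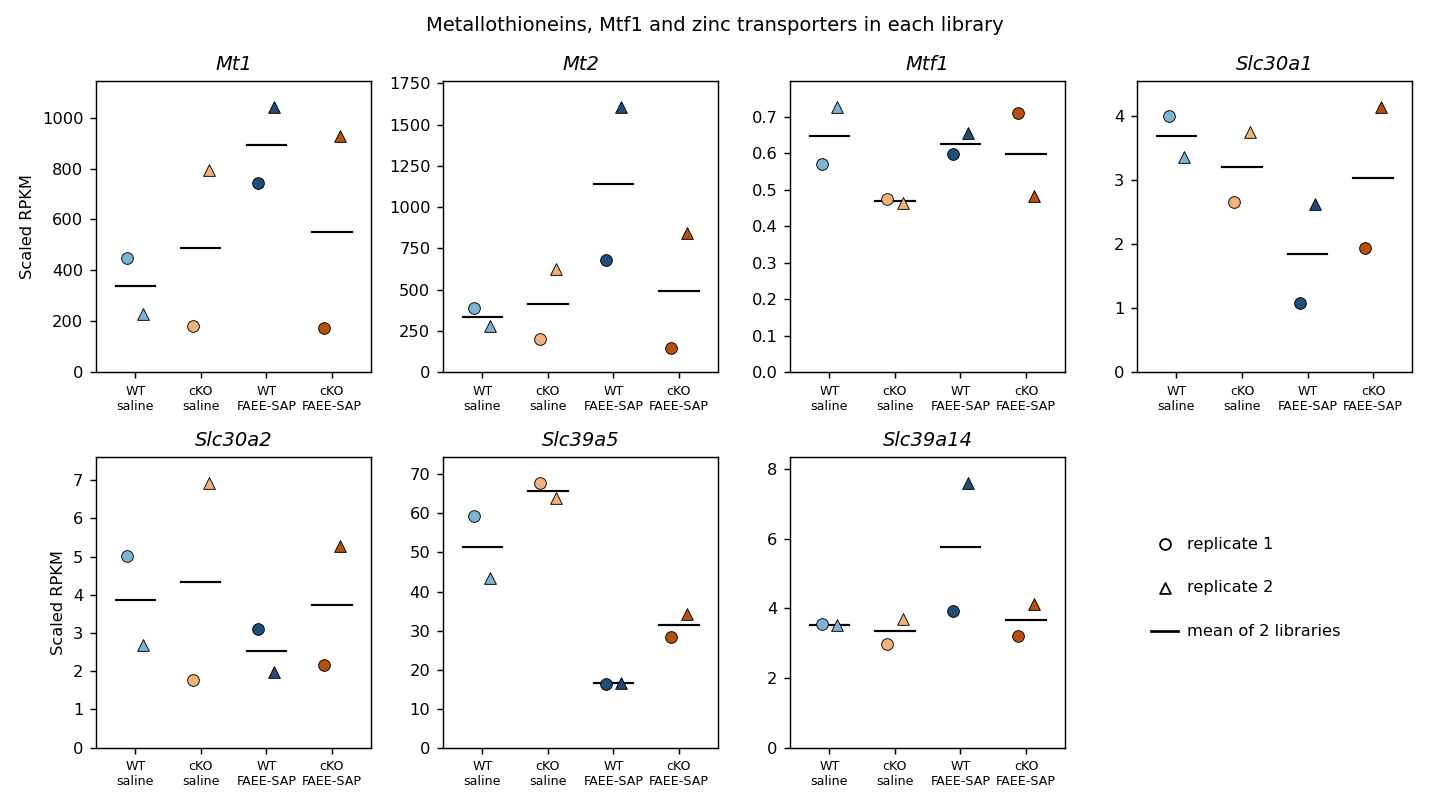
Scaled RPKM of the 7 genes in each library, on linear axes that start at 0, by group; circles are replicate 1, triangles are replicate 2, and bars are means of 2 libraries. The FAEE-SAP libraries of WT lie above those of WT saline for *Mt1*, *Mt2*, and *Slc39a14* and below them for *Slc39a5* and *Slc30a1*, and the libraries of each cKO group lie far apart for the metallothioneins. The share of all genes whose groups lie apart was not counted.

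With FAEE-SAP in WT, 1 of the 7 genes was called, *Slc39a5*, where 6.93% of the 10894 genes tested were called in either direction. Calls required an adjusted p below 0.05 together with 2-fold or more of change. The median log2 fold change of the 7 genes was -0.04, and that of all genes tested was 0.02. The zinc importer *Slc39a5* was at 59.3 and 43.5 scaled RPKM in WT saline and at 16.4 and 16.6 in WT FAEE-SAP. It fell by 1.63 on the log2 scale (SE 0.20, 95% confidence interval -2.13 to -1.13, adjusted p = 0.0126), which is 3.09-fold lower. All FAEE-SAP libraries were below all saline libraries, in WT and in cKO. Without WT FAEE-SAP replicate 1 the adjusted p was 0.0637 and without replicate 2 it was 0.101, with log2 fold changes of -1.57 and -1.59. Where a library is left out, here and below, its group is 1 library that is assumed to vary like the other group. As deposited, RPKM of *Slc39a5* was 43.2 and 37.7 in WT saline and 33.2 and 32.1 in WT FAEE-SAP, a log2 fold change of -0.31 with an adjusted p of 0.170.

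The metallothioneins did not pass the test in WT. Mean *Mt1* was 338 ± 155 (SD, n = 2) scaled RPKM with saline and 892 ± 209 with FAEE-SAP, a log2 fold change of 1.46 (SE 0.35, 95% confidence interval 0.60 to 2.31, adjusted p = 0.0610). Mean *Mt2* was 332 ± 79.1 and 1142 ± 653, a log2 fold change of 1.67 (SE 0.41, 95% confidence interval 0.65 to 2.69, adjusted p = 0.0667). Both were called when the RPKM was used as deposited, where 66.7% of all genes tested were called and the median gene was itself higher by 1.24, with log2 fold changes of 2.78 (adjusted p = 0.00128) for *Mt1* and 2.99 (adjusted p = 0.00147) for *Mt2*. *Mt1* alone was called with quantile normalization (adjusted p = 0.0434) and without WT saline replicate 1 (log2 fold change 1.95, adjusted p = 0.0254), and *Mt2* alone without WT FAEE-SAP replicate 1 (log2 fold change 2.33, adjusted p = 0.0372).

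*Slc39a14*, the importer of zinc, iron, and manganese, was at 3.55 and 3.51 scaled RPKM with saline and 3.92 and 7.60 with FAEE-SAP in WT, and 2.99 and 3.70 with saline and 3.21 and 4.13 with FAEE-SAP in cKO. Only WT FAEE-SAP replicate 2 stood above 4.13. Its log2 fold change in WT was 0.61 (SE 0.33, adjusted p = 0.293), and without WT FAEE-SAP replicate 2 it was 0.19. As deposited it was 1.91 (adjusted p = 0.00284), from RPKM of 2.58 and 3.04 to 7.94 and 14.7. In the same comparison of scaled values, 7 of 7 listed IL-6 and STAT3-responsive genes were higher, as were 5562 of all 10894 genes tested. Of the 7, 4 were called, where 6.93% of all genes were. Among them were *Socs3*, a feedback inhibitor of cytokine signaling (log2 fold change 3.26, adjusted p = 0.00458), and *Junb*, an AP-1 subunit (3.16, adjusted p = 0.00298). Another, *Bcl3*, reached the minimum for testing only with the WT FAEE-SAP libraries. Its deposited RPKM was 0.157 and 0.577 with saline and 6.01 and 3.37 with FAEE-SAP.

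The exporter *Slc30a1* was at 4.01 and 3.37 scaled RPKM with saline and 1.08 and 2.63 with FAEE-SAP in WT, and 2.66 and 3.74 with saline and 1.94 and 4.13 with FAEE-SAP in cKO. Both WT FAEE-SAP libraries were below both WT saline libraries, and *Slc30a1* had a log2 difference of -1.09 (SE 0.42, adjusted p = 0.160). As deposited that value was 0.19, in the other direction (adjusted p = 0.663). For the vesicular exporter *Slc30a2* the levels were 5.03 and 2.69 with saline and 3.10 and 1.97 with FAEE-SAP in WT, and 1.76 and 6.92 with saline and 2.18 and 5.27 with FAEE-SAP in cKO, so the groups overlapped in each comparison. Its log2 fold change in WT was -0.56 (SE 0.37, adjusted p = 0.384), and 0.73 as deposited (adjusted p = 0.0823).

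*Mtf1* had 0.571 and 0.726 scaled RPKM with saline and 0.597 and 0.655 with FAEE-SAP in WT, and 0.474 and 0.462 with saline and 0.711 and 0.484 with FAEE-SAP in cKO. The log2 fold change in WT was -0.04 (SE 0.25, 95% confidence interval -0.67 to 0.58, adjusted p = 0.936). As deposited the change was 1.13, from RPKM of 0.415 and 0.628 to 1.21 and 1.27. *Mtf1* reached the minimum in WT only with the FAEE-SAP libraries, so 1.13 is given with no test. It was not tested in the comparisons of cKO FAEE-SAP or WT saline with cKO saline, where fewer than 2 libraries reached the minimum as deposited, at 0.415 and 0.628 in WT saline and 0.294 and 0.308 in cKO saline. The gene rested on approximately 85.6 to 368 reads per library, the fewest of the 7.

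**Figure D2:**
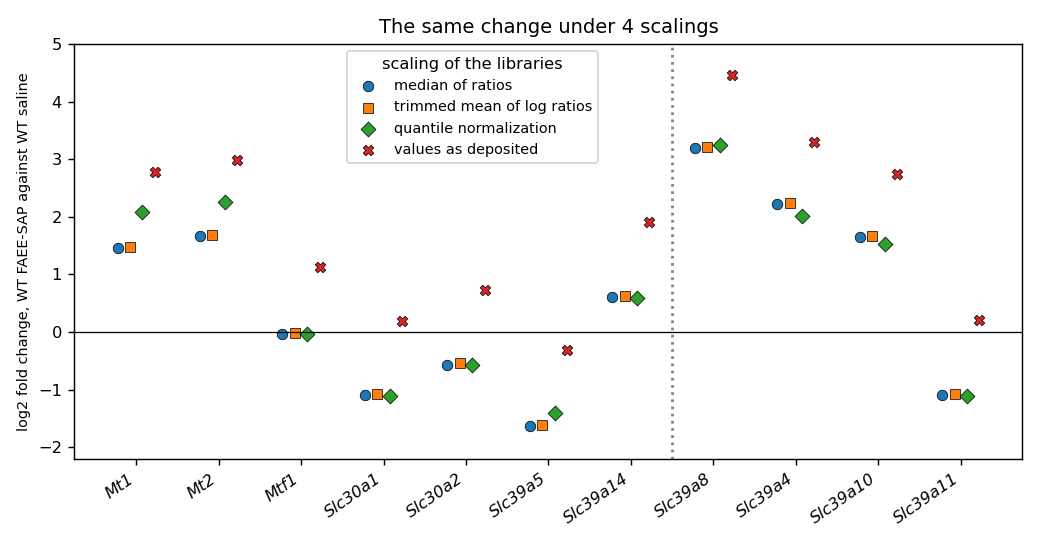
Log2 fold change of the 7 genes (left of the dotted line) and of 4 other SLC39 genes with FAEE-SAP in WT, with libraries scaled by the median of ratios, by a trimmed mean of log ratios, by quantile normalization, or not scaled. *Slc39a5* is below 0 under all 4, *Mt1* and *Mt2* are above 0 under all 4, and *Slc30a1*, *Slc30a2*, and *Slc39a11* are below 0 when scaled and above 0 as deposited.

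In cKO, 0 of the 6 genes tested were called with FAEE-SAP, and 0.0531% of the 9423 genes tested were called (limma, 5 genes, with 888 at an unadjusted p under 0.05). The median log2 fold change of the 6 genes was -0.0034, against -0.01 for all genes tested. *Slc39a5* was at 67.7 and 63.9 scaled RPKM in cKO saline and at 28.3 and 34.3 in cKO FAEE-SAP, a log2 fold change of -1.04 (SE 0.17, 95% confidence interval -1.50 to -0.59, adjusted p = 0.255), and it was the 1 member past an unadjusted p of 0.05 and 2-fold, which 2.97% of all genes tested passed. The intervals of the metallothioneins were wide. *Mt1* had a log2 fold change of 0.11 with a 95% confidence interval of -2.61 to 2.84, and *Mt2* one of 0.01 with -2.51 to 2.54. The difference between replicates was larger than that between treatments, with means of 488 ± 436 (SD, n = 2) in cKO saline and 551 ± 535 in cKO FAEE-SAP for *Mt1*. *Slc39a14* had a log2 fold change of 0.15 (95% confidence interval -0.39 to 0.70, adjusted p = 0.824), *Slc30a1* of -0.12 (adjusted p = 0.935), and *Slc30a2* of -0.02 (adjusted p = 0.994).

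Between the genotypes with saline, 0 of the 6 genes tested and 0% of the 8715 genes tested were called with limma, and 187 genes, none of the 6 among them, had an unadjusted p under 0.05. *Slc39a5* was higher in both cKO libraries than in both WT libraries, with means of 65.8 ± 2.72 and 51.4 ± 11.2 scaled RPKM and a log2 fold change of 0.34 (95% confidence interval -0.17 to 0.86, adjusted p = 0.999). The other 5 overlapped between genotypes. With FAEE-SAP, 0 of the 7 genes were called in cKO against WT, where 1.27% of the 11008 genes tested were called. *Slc39a5* again did not overlap, at 28.3 and 34.3 in cKO and 16.4 and 16.6 in WT, and differed by 0.91 on the log2 scale (SE 0.19, 95% confidence interval 0.43 to 1.38, adjusted p = 0.101), but as deposited its libraries overlapped and the value was -0.05. For *Mt1* and *Mt2* the log2 fold changes were -1.14 (95% confidence interval -2.98 to 0.69, adjusted p = 0.456) and -1.58 (-3.66 to 0.49, adjusted p = 0.365), and cKO FAEE-SAP replicate 2 lay within the range of the WT libraries. Without that replicate *Mt1* was called (adjusted p = 0.0314) at -2.38 log2 units, with 1 cKO library and a spread taken from the WT libraries, and without cKO FAEE-SAP replicate 1 the value was 0.09. As deposited, *Mt1*, *Mt2*, and *Slc39a14* were called lower in cKO, where 40.2% of all genes tested were called.

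The difference between the genotypes in their response to FAEE-SAP was tested as an interaction over all 8 libraries, and 0 of the 7 genes and 0.0719% of the 11133 genes tested were called (limma; 8 genes, with 1398 at an unadjusted p under 0.05). For *Slc39a5* the difference of log2 fold changes was 0.54 (95% confidence interval -0.09 to 1.18, adjusted p = 0.462). It was -1.38 for *Mt1* (-4.37 to 1.61, adjusted p = 0.702) and -1.69 for *Mt2* (-4.57 to 1.19, adjusted p = 0.607). A difference between the metallothionein responses of the genotypes was thus not shown. An exact permutation test of 2 libraries against 2 cannot give a two-sided p below 0.33 and was not used.

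**Figure D3:**
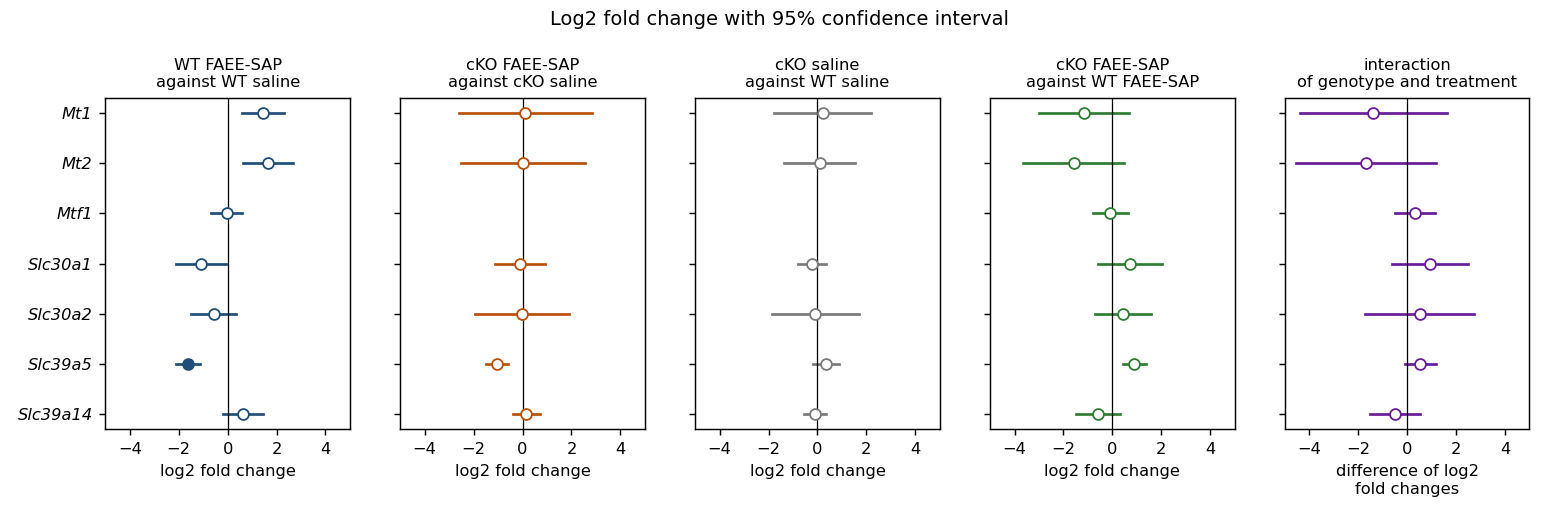
Log2 fold changes of the 7 genes in 4 comparisons, and the difference of log2 fold changes in the interaction, each with its 95% confidence interval; filled points passed the adjusted p and 2-fold thresholds, and a missing row was not tested. *Slc39a5* in WT is the only filled point, and the intervals of *Mt1* and *Mt2* are widest where cKO libraries enter.

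Ratios between genes of a library do not move with its scaling. *Slc39a14* to *Slc39a5* was 0.0598 and 0.0806 with saline and 0.239 and 0.458 with FAEE-SAP in WT, and 0.0441 and 0.0579 with saline and 0.113 and 0.120 with FAEE-SAP in cKO. This ratio of importers was higher in every FAEE-SAP library than in every saline library, and higher in both WT than in both cKO libraries after FAEE-SAP. *Mt2* to *Mt1* lay between 0.783 and 1.54. The size of this ratio depends on the gene lengths behind the RPKM, which are not given, so a value of 1 is not read as parity. In GENCODE vM21 the exonic length is 1246 bases for *Mt1*, its whole span, and 588 for *Mt2*. *Slc39a5* was compared with the geometric mean of the 12 acinar markers, and per 1000 RPKM of that mean it had 37.0 and 29.3 with saline and 37.6 and 42.5 with FAEE-SAP in WT, and 34.7 and 39.5 with saline and 26.5 and 32.7 with FAEE-SAP in cKO. On that scale neither the WT nor the cKO groups overlapped, with FAEE-SAP higher in WT, where *Slc39a5* fell relative to the median gene, and lower in cKO. The median log2 fold change of the 12 acinar markers in WT was -2.06, beside -1.63 for *Slc39a5*. In whole pancreas, fewer acinar cells and less RNA per acinar cell cannot be told apart. *Slc30a2* on the same scale had 3.13 and 1.81 with saline and 7.11 and 5.06 with FAEE-SAP in WT, and 0.901 and 4.28 with saline and 2.04 and 5.02 with FAEE-SAP in cKO, so WT FAEE-SAP was above every saline library.

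**Figure D4:**
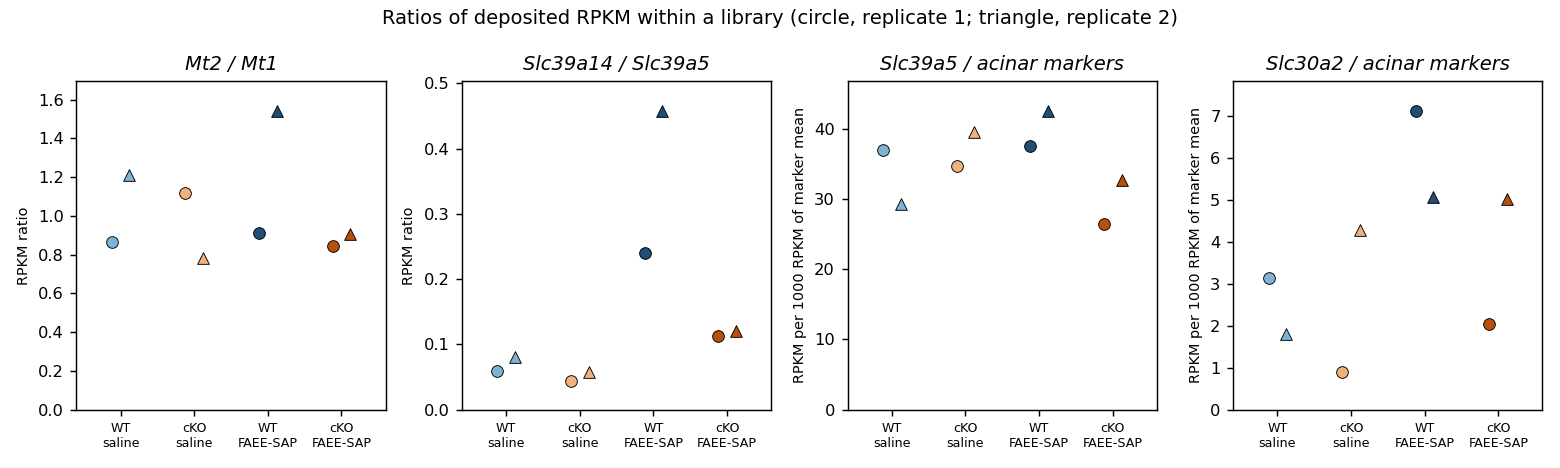
Ratios of deposited RPKM within each library by group: *Mt2* to *Mt1*, *Slc39a14* to *Slc39a5*, and *Slc39a5* and *Slc30a2* per 1000 RPKM of the geometric mean of 12 acinar markers. *Slc39a14* to *Slc39a5* reaches 0.239 and 0.458 in WT FAEE-SAP, above all other libraries, while *Slc39a5* to acinar markers stays between 26.5 and 42.5.

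Replicates of a group differed in metallothionein level, and *Mt1* and *Mt2* differed together. The library with more *Mt1* had 1.96 times as much in WT saline, 4.42 times in cKO saline, 1.40 times in WT FAEE-SAP, and 5.37 times in cKO FAEE-SAP. *Mt2*, *Slc30a1*, and *Slc39a14* were also higher in that library in 4 of 4 groups, *Slc30a2* and *Slc39a5* in 3 of 4, and *Mtf1* in 1 of 4. Of all 11133 genes that passed the filter, 15.1% were higher in it in 4 of 4 groups. Of 6 glucocorticoid-responsive genes, 5 were, namely *Fkbp5*, *Tsc22d3*, *Per1*, *Klf9*, and *Sgk1*, and *Zbtb16* was in 3 of 4. *Fkbp5*, a co-chaperone of the glucocorticoid receptor, was at 14.9 and 7.35 scaled RPKM with saline and 6.83 and 21.6 with FAEE-SAP in WT, and 6.46 and 18.3 with saline and 3.74 and 30.0 with FAEE-SAP in cKO. None of the 6 was called in WT or in cKO with FAEE-SAP. Among the IL-6 and STAT3-responsive genes, *Stat3*, *Cebpd*, and *Osmr* were also higher in the library with more *Mt1* in 4 of 4 groups. *Socs3*, *Bcl3*, *Il4ra*, and *Junb* were not. The same libraries differed in other markers too. In the library with more *Mt1*, summed neutrophil, macrophage, fibroblast, and hepatocyte markers were each lower in 4 of 4 groups. Summed duct, adipocyte, and lymphocyte markers were each lower in 3 of 4. Summed acinar and islet markers were each higher in 3 of 4, and endothelial markers went both ways. The part of any of these in the metallothionein levels was not tested.

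Of the other zinc transporter and metallothionein genes, 22 in all, 15 were tested in WT, of which 9 were higher and 6 lower with FAEE-SAP. *Slc39a8* was called higher and *Slc39a11* lower, where 6.93% of all genes were called. *Slc39a4* and *Slc39a10* also passed the thresholds, but they reached the minimum for testing through the WT FAEE-SAP libraries alone, so the filter fixed their direction and their levels are given with no test. None of the 5 other SLC30 exporters tested was called in WT. *Slc39a8*, an importer of zinc and manganese, was at 1.36 and 0.992 scaled RPKM with saline and 8.58 and 14.97 with FAEE-SAP in WT, and 1.32 and 0.9997 with saline and 2.06 and 2.94 with FAEE-SAP in cKO. In WT it rose by 3.19 on the log2 scale (SE 0.32, adjusted p = 0.00732), and was called in WT under each scaling. *Slc39a4*, the importer of dietary zinc in the intestine, was at 0.174 and 0.266 scaled RPKM with saline and 1.52 and 1.13 with FAEE-SAP in WT, and *Slc39a10*, a plasma membrane importer, at 0.214 and 0.305 and at 1.08 and 0.888. *Slc39a11* fell from 5.81 and 6.11 to 2.98 and 2.56 (-1.09, SE 0.19, adjusted p = 0.0326), but as deposited its value was 0.20, and it was not called without any 1 of the 4 libraries.

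In cKO, 0 of 13 tested genes of these families were called with FAEE-SAP, where 0.0531% of all genes were called. *Slc39a8* had a log2 fold change of 1.05 (SE 0.25, 95% confidence interval 0.40 to 1.69, adjusted p = 0.405). In cKO against WT with FAEE-SAP, 0 of 15 were called beside 1.27% of all genes, *Slc39a8* having a log2 difference of -2.18 (SE 0.34, adjusted p = 0.0551). It was called as deposited, as were 40.2% of all genes, and with all 8 libraries in 1 model, where 2.65% of all genes were. *Slc39a4* and *Slc39a10*, at 0.436 and 0.328 and at 0.284 and 0.174 in cKO FAEE-SAP, again reached the minimum only through the WT libraries. The interaction of *Slc39a8* was -2.15 (SE 0.46, adjusted p = 0.177). Among the genes of each family other than the 7, the highest expressed were *Slc39a7*, which releases zinc from the endoplasmic reticulum, at 17.2 to 24.7 scaled RPKM over all libraries, and *Slc30a5*, which loads zinc into the secretory pathway, at 4.46 to 5.72. Neither passed the test in any comparison, with log2 fold changes in WT of 0.11 (95% confidence interval -0.28 to 0.51) and -0.08 (-0.54 to 0.37). *Mt3*, the brain metallothionein, was at 0 to 0.0793 scaled RPKM, and *Mt4* was above 0 in 1 library.

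**Figure D5:**
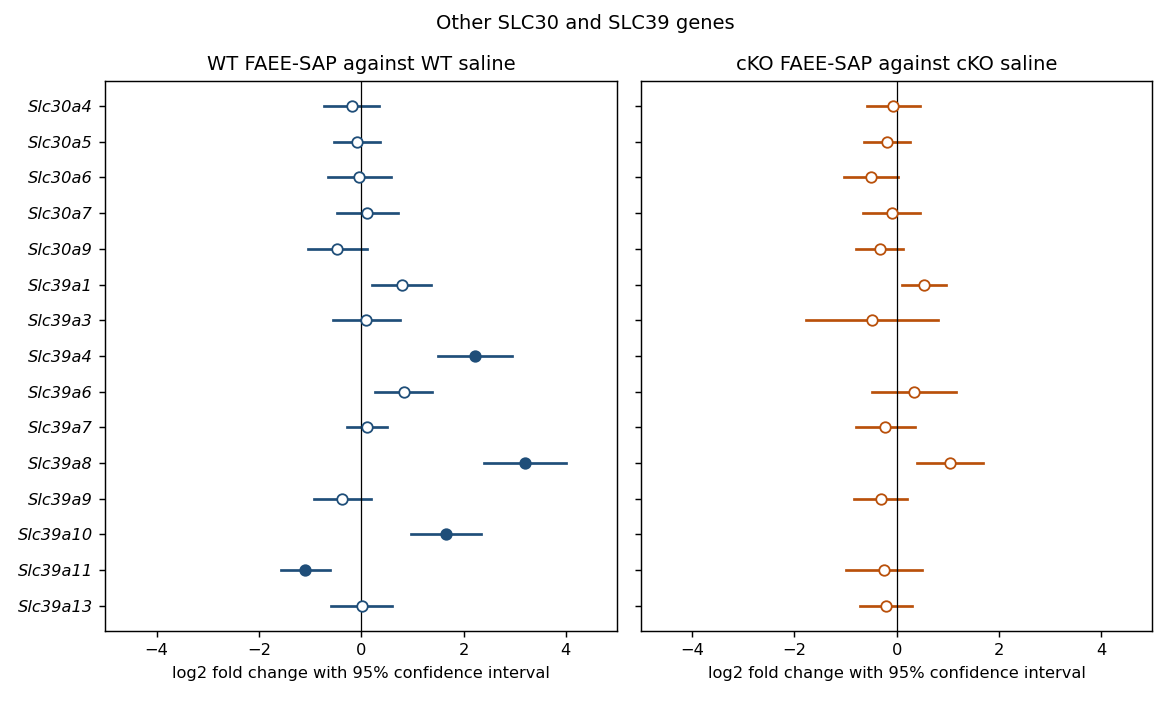
Log2 fold changes with 95% confidence intervals of the other SLC30 and SLC39 genes that passed the filter, for FAEE-SAP against saline in WT (left) and cKO (right); filled points passed the thresholds, and *Slc39a4* and *Slc39a10* reached the minimum in WT through the FAEE-SAP libraries alone and were not tested in cKO. *Slc39a8*, *Slc39a4*, and *Slc39a10* are the filled points above 0 in WT and *Slc39a11* the one below, and no point is filled in cKO.

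Markers of other cell types moved with the same comparison. The summed neutrophil markers, 7 genes, were at 1.28 to 3.67 scaled RPKM in the saline libraries, 54.1 to 59.4 in WT FAEE-SAP, and 12.6 to 19.8 in cKO FAEE-SAP, with *Ly6g* and *Mmp8* at 0 in some libraries. *Ly6g* did not reach the minimum for testing, and the others reached it through the WT FAEE-SAP libraries. *S100a9*, which encodes a calprotectin subunit, was at 0.649 and 0.971 with saline and 33.1 and 29.2 with FAEE-SAP in WT. Summed macrophage markers, also 7 genes, were at 76.8 to 94.0 in WT saline and 87.3 to 90.9 in cKO saline. With FAEE-SAP they were at 72.0 to 99.4 in WT and 110 to 128 in cKO. With FAEE-SAP, 3 of 7 were higher in WT and 7 of 7 in cKO, and 6 of 7 were higher in cKO against WT. In each of these comparisons 0 of 7 were called. Summed islet markers, 6 genes, were at 270.3 to 370 in saline libraries, 163 to 215 in WT FAEE-SAP, and 416 to 428 in cKO FAEE-SAP. Relative to the median gene, 2 of the 6 were called lower in WT, *Sst* for somatostatin (log2 fold change -1.48, adjusted p = 0.0326) and *Gcg* for glucagon (-1.001, adjusted p = 0.0344), and *Gcg* was higher with FAEE-SAP as deposited. In cKO against WT with FAEE-SAP, 3 of 6 islet and 6 of 12 acinar markers were called higher, the direction of *Slc39a5* there, beside 1.27% of all genes called. Of other marker lists 3 had a call in WT, with *Spp1* of 6 duct markers higher by 1.79 (adjusted p = 0.0326), *Fabp4* of 5 adipocyte markers higher by 1.21 (adjusted p = 0.0394), and *Ttr* of 6 hepatocyte markers, which islets also express, lower at -2.72 (adjusted p = 0.00530), while fibroblast, endothelial, and lymphocyte lists had none. The part of these cells in the levels of *Slc39a5*, *Slc39a8*, *Slc39a14*, and the metallothioneins was not tested. Of 11 tested iron-handling genes, 6 were higher and 5 lower in WT, and 2 were called, where 6.93% of all genes were called. These were *Hmox1*, which degrades heme, higher by 2.10 on the log2 scale (adjusted p = 0.00878), and *Steap4*, a metalloreductase, higher by 1.83 (adjusted p = 0.00961). Of 9 tested copper-handling genes, 3 were higher and 6 lower, and 1 was called, *Cp* for ceruloplasmin, higher by 1.11 (adjusted p = 0.0306). Of 7 NRF2-responsive genes, 4 were higher and 3 lower, and 2 were called. These were *Srxn1*, higher by 1.43 (adjusted p = 0.0455), and *Gsr*, higher by 1.01 (adjusted p = 0.0383), both enzymes of thiol redox balance. *Gclc* was higher by 1.86 but was not called (adjusted p = 0.0997). None of these 3 lists had a call in cKO, where 5 of all 9423 genes tested did.

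The genes whose pattern was most like a member were found by Pearson r of log2(scaled RPKM + 0.1) over the 8 libraries, which share 4 groups. For *Mt1* they were *Gpr161*, *Ezh1*, and *Iqsec2* (r of 0.978, 0.972, and 0.971), and r with *Mt2* was 0.958. For *Mt2* they were *Wdfy3*, *Bcl2l1*, and *Map3k6* (0.983, 0.983, and 0.981), and for *Slc39a14* *Fam208b*, *Tmem87a*, and *Mier1* (0.990, 0.988, and 0.987). *Mt2* and *Slc39a14* had an r of 0.849 with each other, and *Slc39a5* and *Slc39a14* one of -0.643. The nearest genes were *Zfp292*, *Map3k2*, and *Rora* for *Slc30a1* (0.977, 0.963, and 0.952), *Tmem38b*, *Tmc6*, and *Fam120a* for *Slc30a2* (0.969, 0.964, and 0.957), and *Ccr7*, *Grap2*, and *Klk8* for *Mtf1* (0.988, 0.967, and 0.960).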

How the data were processed

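The authors deposited RPKM per gene for each library. Per the study's methods, libraries were made with a directional kit and sequenced as pairs, reads were filtered with fastp, and CLC Genomics Workbench was used with Ensembl GRCm38.p6. How the RPKM were computed is not given in the sources used here. Groups and replicate numbers were taken from the labels. RPKM are not counts, so limma 3.58.1 in R 4.3.3 was used with an intensity trend on log2(scaled RPKM + 0.1), for all genes with deposited RPKM of at least 0.5 in at least 2 libraries of a comparison, and p-values were adjusted by Benjamini-Hochberg over all genes tested. Libraries of a comparison were scaled by the median of ratios. Levels are scaled over all 8 libraries together, and fold changes are on the log2(scaled RPKM + 0.1) scale, which understates changes of low genes. It was first tested on simulated data. Library totals came from low values, since RPKM times exonic length times the total gives whole reads. Between 84.5% and 85.9% of values under 20 reads were whole within 0.1 reads, and 95.1% of genes were matched to GENCODE vM21 by symbol, so reads are approximate. The genes and lists were chosen with earlier results of these data known. Genes named beside the 7 are the called genes of their families and the highest expressed one, the 3 nearest genes of each member by Pearson r (those of *Slc39a5* are not reported here), and up to 2 called genes of other lists. Other names, such as the glucocorticoid-responsive genes, *Ly6g*, *Mt3*, and *Mt4*, were added after their values were seen. Alternatives were other scalings, filters, pseudocounts, thresholds, and models, and each library left out. Promoters were from RefSeq. No promoter of *Slc39a14* was matched. Python 3.11.15 was used for tables and figures.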

Additional observations from a re-analysis of the deposited data

How the results depend on the processing

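Precision was limited by 2 libraries per group, by unknown rules for reads shared by *Mt1* and *Mt2*, and for *Mtf1* by few reads. Of 548 log2 fold changes recomputed, 41 turned in direction, 22 of them without a library, 14 with values as deposited, and 1 with an adjusted p under 0.05. As deposited, 4 of the 7 genes (*Mt1*, *Mt2*, *Mtf1*, *Slc39a14*) were called in WT, 3 with FAEE-SAP in cKO against WT, and 12, 11, and 3 other family genes in WT, in cKO against WT, and in the interaction, beside 66.7%, 40.2%, and 7.11% of all genes tested, and the following log2 fold changes turned. In WT these were *Mtf1* 1.13, *Slc30a1* 0.19, *Slc30a2* 0.73, and *Slc39a11* 0.20; in cKO *Slc30a1* 0.48 and *Slc30a2* 0.58; between genotypes with saline *Mt1* -0.059 and *Mt2* -0.19; with FAEE-SAP *Slc30a1* -0.21, *Slc30a2* -0.50, and *Slc39a5* -0.051; and in the interaction *Mtf1* -0.33, *Slc30a2* -0.15, and *Slc39a5* -0.12. Quantile normalization called 2 of the 7 genes in WT (5.97% of all genes) and turned *Mt2* between genotypes with saline (-0.11). Without the filter, *Mtf1* in WT (0.018) and *Mt2* in cKO (-0.016) turned and 2 other family genes were called in WT (1.34% of all genes). An RPKM minimum of 2 turned *Slc30a2* in cKO (0.020) and called 1 other family gene with FAEE-SAP in cKO against WT (2.07%). All 8 libraries in 1 model called 2 there (2.65%) and turned *Mt2* in cKO (-0.016), and a pseudocount of 1 called 2 in WT (4.64%). At an unadjusted p under 0.05 and 2-fold, 4 of the 7 genes passed in WT and 1 in cKO, and of other family genes 1 in cKO, 3 in cKO against WT, and 3 in the interaction, beside 12.4% of all genes in WT, 2.97% in cKO, 8.39% in cKO against WT, and 7.02% in the interaction. Counts of other family genes in WT and in cKO against WT include *Slc39a4* and *Slc39a10* where these passed, which reached the minimum through WT FAEE-SAP alone. The count of 4 of the 7 genes as deposited in WT includes *Mtf1*, which reached the minimum there only with the WT FAEE-SAP libraries. Without 1 library, which leaves its group with 1 that is assumed to vary like the others, between 0 and 2 of the 7 genes and between 1 and 4 other family genes were called in WT, beside 1.03% to 4.56% of all genes, and 0 to 1 of the 7 in cKO against WT with FAEE-SAP, beside 0% to 1.29%. Log2 fold changes that turned without 1 library ranged, over all libraries left out, in WT from -0.20 to 0.097 for *Mtf1*. In cKO they ranged from -1.03 to 1.33 for *Mt1*, -1.17 to 1.28 for *Mt2*, -0.57 to 0.41 for *Slc30a1*, and -0.97 to 0.94 for *Slc30a2*, and between genotypes with saline from -0.86 to 1.29 for *Mt1*, -0.73 to 0.90 for *Mt2*, -1.04 to 0.86 for *Slc30a2*, and -0.26 to 0.038 for *Slc39a14*. With FAEE-SAP in cKO against WT the ranges were -2.38 to 0.094 for *Mt1*, -0.32 to 0.14 for *Mtf1*, and -0.21 to 1.08 for *Slc30a2*, and in the interaction -0.46 to 1.46 for *Slc30a2*. The cause of these changes was not tested. No source pairs same-numbered replicates, and correlations of their deviations across genes were over 0.1 for 3 of 6 pairs of groups and ranged from -0.522 to 0.399, at 0.304 for WT and cKO FAEE-SAP. With the replicate block, 1 of the 7 genes was called in WT, 1 in cKO against WT with FAEE-SAP (*Mt2*, log2 fold change -1.58, adjusted p = 0.0490), 2 and 3 other family genes in the same comparisons, and 442 of all genes (4.06%) in WT and 568 (5.16%) in cKO against WT. With WT saline numbers exchanged in the block, an alternative chosen after seeing the data, 3 of the 7 genes and 822 of all genes (7.55%) were called in WT, and 0 between genotypes with saline. Without 4 transcription factors, *Slc39a5* per 1000 RPKM of acinar markers was 3.11 (WT saline), 3.34 (cKO saline), 3.65 (WT FAEE-SAP), and 2.82 (cKO FAEE-SAP) on average.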
